A study of Mus musculus with 6 samples.

Results

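The 37 genes described here belong to the 4 Hox clusters of the mouse, out of 19938 genes measured on the array. Members were the array features that named exactly 1 gene with a symbol of Hoxa, Hoxb, Hoxc or Hoxd and a number. They were 10 genes of the Hoxa, 9 of the Hoxb, 9 of the Hoxc and 9 of the Hoxd cluster, each with 1 feature. A further feature, whose several gene names included a Hox symbol, was left out. Gene expression was measured in 6 pools of whole CD1 mouse embryos (an outbred strain), collected at embryonic day 5 and kept for 8 hours in cavities of 90 µm diameter (narrow, 3 pools) or 180 µm (wide, 3 pools). Each pool held 30 embryos and is named here by its group and the replicate number of its title. The labels name no mutation, transgene or drug, and both groups were cultured, so the comparison holds no uncultured embryos. The study set embryos with external mechanical cues against embryos without them. In pools of whole embryos a smaller number of expressing cells and less RNA per cell cannot be told apart.

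Hox genes encode homeodomain transcription factors that give cells their position along the head to tail axis. In each cluster the genes lie in a row, and paralogs with low numbers, at the 3′ end, are switched on earlier and further forward in the body than those with high numbers at the 5′ end. In the mouse this sequence starts in the posterior primitive streak during gastrulation, which follows the stage sampled here, and before it the clusters are known as targets of Polycomb repression.

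The deposited values were log2 signals with sample medians between 7.62 and 7.67, so the samples had been brought to one scale before deposit. Most markers of the embryo's own tissues were bright. Their median percentile among all genes was 87.0 for 8 epiblast, 92.4 for 7 extraembryonic ectoderm and 95.2 for 11 visceral endoderm genes. It was 76.8 for 5 parietal endoderm genes and 71.4 for 3 trophoblast giant cell and ectoplacental cone genes, of which Tpbpa stood at 3.83. The 4 measured blood cell genes had a median percentile of 28.4. Of these, Lyz2 had 6.575, 6.256 and 6.051 in narrow and 6.069, 6.550 and 7.505 in wide pools. The 10 markers of maternal decidua and stroma, a tissue that uses Hoxa10 and Hoxa11, had a median percentile of 41.6. They ran from percentile 13.5 for the decidual prolactin gene Prl8a2 to 83.8 for the growth factor receptor gene Pdgfra, with Dcn next at 60.1. Of the 10, 9 lay above the 95th percentile of olfactory and vomeronasal receptor genes, as did 71.7% of all genes. The part of maternal tissue in the Hox signals was not tested. The mean signal of these 10 genes lay between 7.74 and 7.78 in narrow and between 7.72 and 7.75 in wide pools. The signal of a feature depends on its probes and came without a measure of background, so levels of different Hox genes are given as a rough rank only. As a guide to dim signals, 1194 olfactory and vomeronasal receptor genes were used, which are known from sensory neurons of the nose.

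Promoter windows of 250 bases upstream of the annotated start were found in RefSeq (GRCm38.p6) for 21 of the 37 genes, in 23 windows. Their median ratio of observed to expected CpG was 0.687, against 0.373 over 32851 windows of all genes, and their median GC content was 59.2% against 52.4%. Hox proteins bind DNA together with Pbx partners, and both strands were searched for the letters TGATTGAT and TGATGGAT, which such pairs are known to bind. TGATTGAT was found in 2 and TGATGGAT in 1 of the 23 windows, while each was found in 0.67% of all windows. The DR5 retinoic acid element, 2 copies of AGGTCA with 5 bases of any kind between them, was found in 0 of the 23 windows and in 0.00913% of all windows, and no match says only that these letters are not in this stretch. The 3 windows with a match are shown because they belong to an early hindbrain gene whose product acts on its own promoter, to a second hindbrain gene, and to the member with the highest difference between cavities. Capitals mark the match, which reads as the reverse complement ATCAATCA in Hoxa2 and Hoxd11.
Hoxb1 (chr11:96365508-96365757, plus strand, match from 162 bases upstream): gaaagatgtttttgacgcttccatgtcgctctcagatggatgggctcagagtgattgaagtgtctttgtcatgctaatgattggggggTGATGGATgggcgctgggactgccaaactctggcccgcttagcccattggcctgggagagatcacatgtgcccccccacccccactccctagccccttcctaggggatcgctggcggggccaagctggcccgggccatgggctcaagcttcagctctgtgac
Hoxa2 (chr6:52164832-52165081, minus strand, match from 111 bases upstream): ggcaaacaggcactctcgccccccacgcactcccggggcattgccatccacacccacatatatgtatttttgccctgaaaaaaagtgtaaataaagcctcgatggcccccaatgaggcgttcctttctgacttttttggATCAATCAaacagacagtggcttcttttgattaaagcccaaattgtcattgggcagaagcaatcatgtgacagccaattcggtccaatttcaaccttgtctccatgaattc
Hoxd11 (chr2:74682073-74682322, plus strand, match from 73 bases upstream): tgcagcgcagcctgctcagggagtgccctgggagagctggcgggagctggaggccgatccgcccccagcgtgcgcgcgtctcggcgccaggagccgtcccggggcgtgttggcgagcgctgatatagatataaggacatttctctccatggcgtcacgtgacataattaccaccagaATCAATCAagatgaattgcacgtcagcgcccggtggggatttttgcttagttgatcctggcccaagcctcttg

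Hox genes were dim. Mean signals over the 6 pools ran from 5.62 for Hoxc4 to 8.09 for Hoxa4, with a median of 6.81, and 36 of the 37 lay below the median of all genes, 7.99. The median Hox gene stood at percentile 29.8 of all genes and lay above 95.9% of the receptor genes, whose own median was 5.35. Above the 95th percentile of the receptor genes, 6.74, lay 22 of 37 Hox genes (59.5%), against 71.7% of all genes. No Hox gene reached the highest receptor gene, at 9.10. That count was 30 against the 90th and 7 against the 99th percentile of the receptor genes, so it describes a position in a dim range and is no test of expression.

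**Figure D1:**
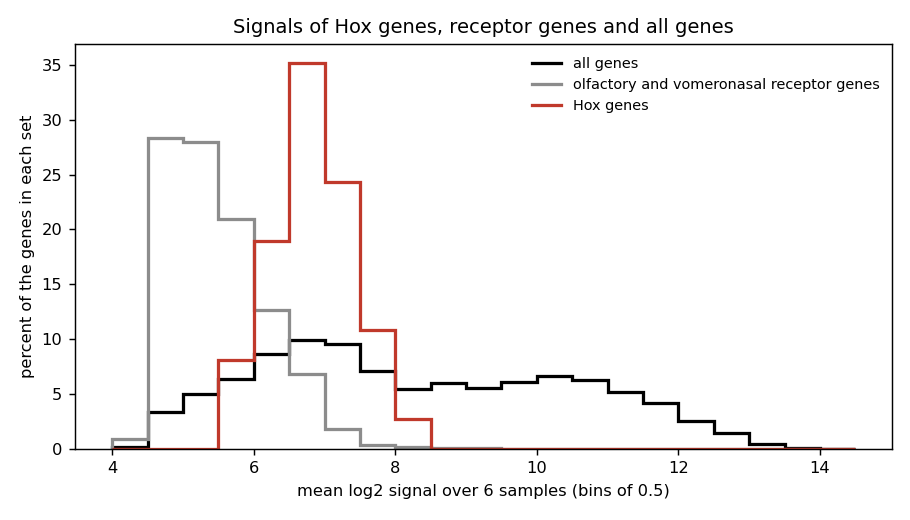
The histogram shows the percent of genes in each bin of mean log2 signal for all 19938 genes (black), 1194 receptor genes (grey) and 37 Hox genes (red). Hox genes fill the range from 5.62 to 8.09, between the bulk of the receptor genes and the bright range of the array.

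Of the 4 clusters Hoxb had the highest median signal, while the brightest single gene was Hoxa4. All 9 Hoxb genes lay above the 95th percentile of the receptor genes, against 4 of 10 Hoxa, 4 of 9 Hoxc and 5 of 9 Hoxd genes. The median percentile among all genes was 36.2 for Hoxb, 29.2 for Hoxd, 26.6 for Hoxc and 25.3 for Hoxa. Along the clusters the order of the medians did not follow the paralog number. They were 29.8 for the 11 genes of paralogs 1 to 4, 27.4 for the 10 genes of paralogs 5 to 8 and 32.6 for the 16 genes of paralogs 9 to 13. The 4 genes of paralog group 13, the last in the row and in the body the most caudal, all lay above the 95th percentile of the receptor genes. None of these ranks was tested, since features of different genes are not on a common scale.

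**Figure D2:**
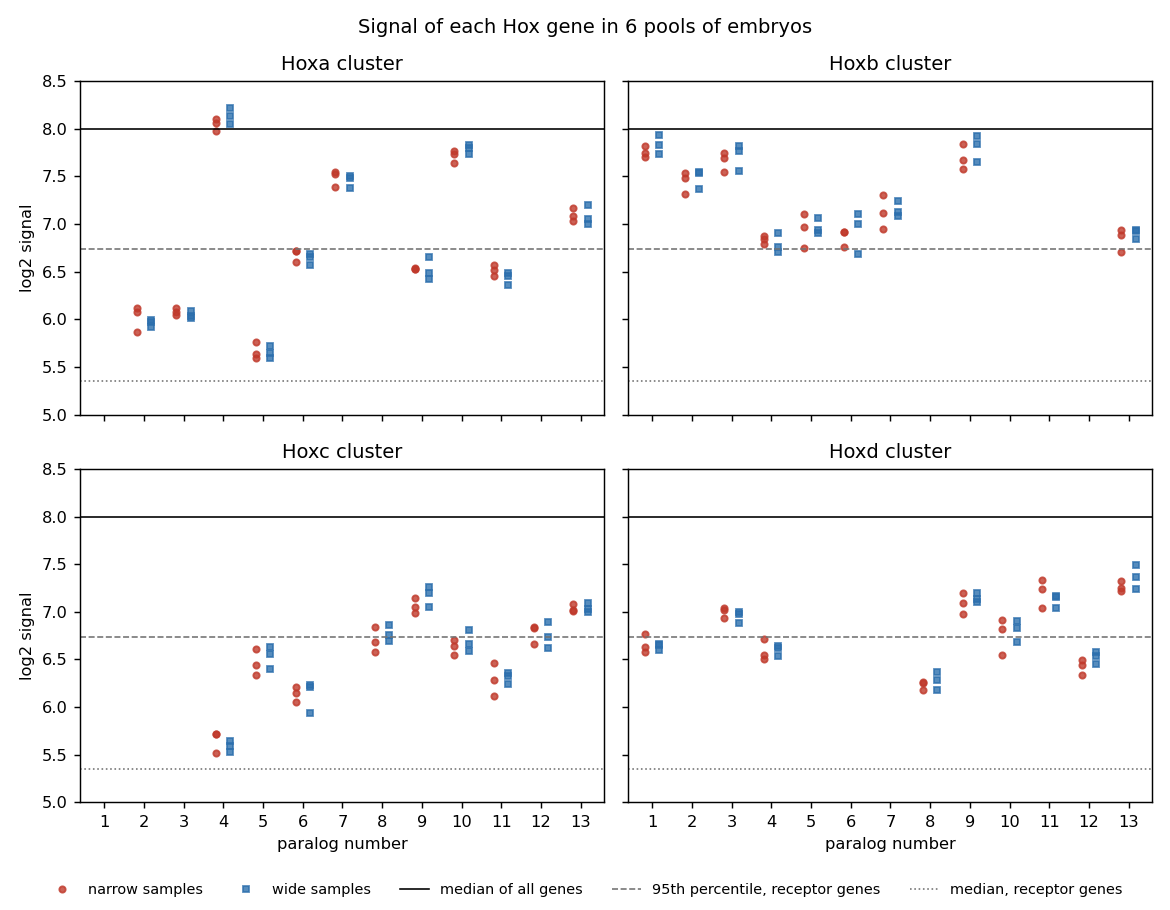
Each panel plots the log2 signal of 1 cluster's genes against paralog number, with red circles for the 3 narrow and blue squares for the 3 wide pools, and lines for the median of all genes (7.99) and for the median (5.35) and 95th percentile (6.74) of the receptor genes. Only Hoxa4 has samples above the all-gene median, and the narrow and wide points of every gene overlap.

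By limma with Benjamini-Hochberg adjustment over all 19938 genes, 0 of the 37 Hox genes differed between narrow and wide cavities, as 0% of all genes did. At an unadjusted p under 0.05 there were 0 Hox genes, while 3.40% of all genes had such a p, and the smallest among Hox genes was 0.114, for Hoxd12. The limma adjusted p was 1.00 for each of the 37. The test of each gene with unequal variances, unadjusted, likewise gave 0 Hox genes and 2.39% of all genes. Samples of the 2 cavities overlapped for every Hox gene, and failed to overlap for 7.70% of all genes. The median difference (narrow minus wide, log2) was -0.029 for the Hox genes and 0.001 for all genes, with 15 of 37 differences above 0 against 50.9% of all genes.

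Taken 1 gene at a time, the intervals of this fit set a limit on how large a Hox difference could be. They are separate 95% intervals and no joint statement about the 37 genes. Standard errors ran from 0.042 to 0.10, and the 95% intervals of the 37 differences reached from -0.31, the lower end for Hoxb9, to 0.26, the upper end for Hoxd11. As a fold change these ends are 1.24-fold lower and 1.20-fold higher in narrow cavities. All 37 intervals lay within 1.3-fold in either direction, as did 98.4% of those of all genes. Signals near the floor of an array understate fold changes, and this limit therefore holds for the signal and not for the RNA.

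**Figure D3:**
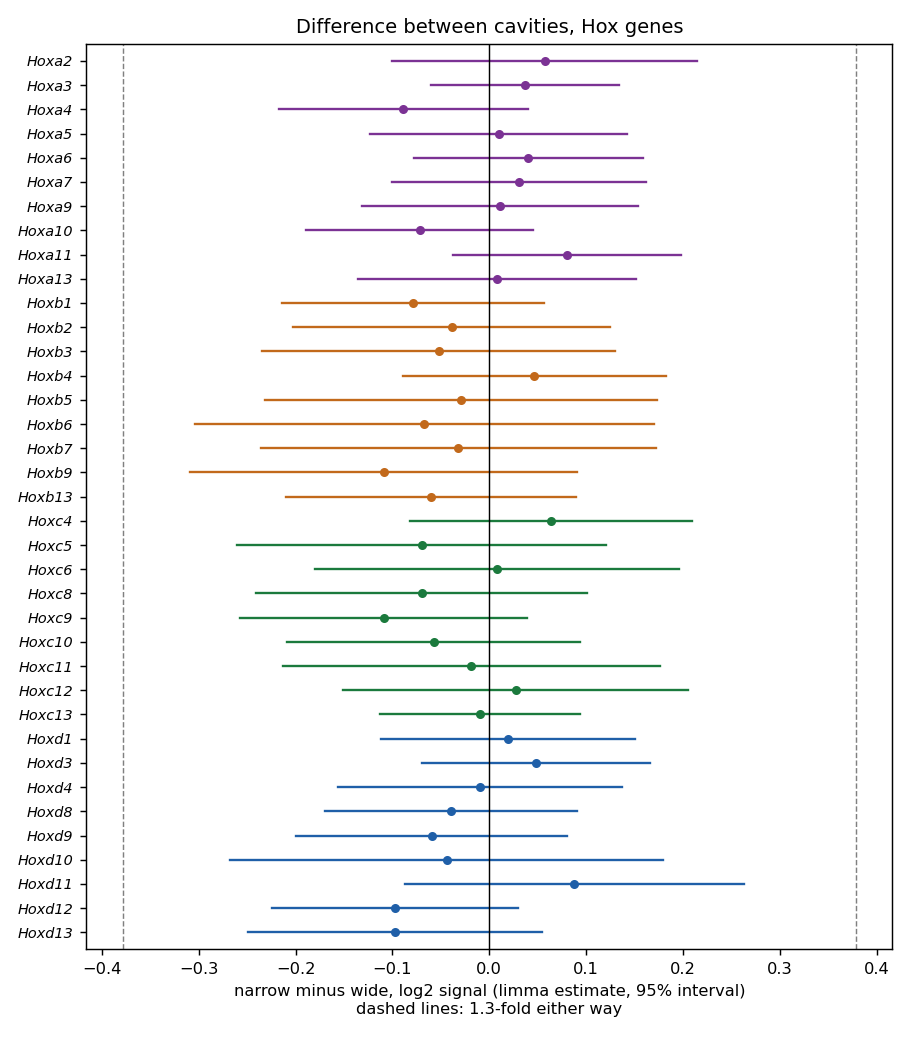
Points are the difference between narrow and wide pools of each Hox gene on the log2 scale. Bars are the 95% intervals of the limma fit that left out the replicate number, colours the 4 clusters and dashed lines 1.3-fold either way. Every interval holds 0 and stays inside the dashed lines, from -0.31 for Hoxb9 to 0.26 for Hoxd11.

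Among the early paralogs, Hoxb1, needed for the identity of the fourth hindbrain segment, had signals of 7.70, 7.82 and 7.74 in narrow 1 to 3 and of 7.74, 7.83 and 7.93 in wide 1 to 3. Its difference was -0.08 ± 0.06 (SE; 95% interval -0.21 to 0.06), and its highest pool was wide 3. Hoxd1 lay between 6.58 and 6.77 in narrow and between 6.60 and 6.67 in wide pools, a difference of 0.02 ± 0.06. The wide samples of Hoxd1 thus all lay inside the range of the narrow ones. Hoxa2, which sets the identity of the second pharyngeal arch, had 5.863, 6.075 and 6.117 in narrow and 5.919, 5.997 and 5.968 in wide pools. Narrow 1 was its lowest sample and narrow 3 its highest, so its 2 extremes were in the same group (difference 0.06 ± 0.07, 95% interval -0.10 to 0.21). Hoxb2 had 7.32, 7.48 and 7.53 in narrow and 7.37, 7.55 and 7.53 in wide pools. For Hoxb2 too the number 1 pools were the lowest of each group.

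Hoxa3, the gene for thymus and parathyroid formation, had the smallest standard error of the 37 genes, with 6.05 to 6.12 in narrow and 6.02 to 6.08 in wide pools. Hoxb3 had 7.54, 7.74 and 7.69 in narrow and 7.55, 7.76 and 7.81 in wide pools, again lowest in both number 1 pools. Hoxd3 had 7.02, 7.04 and 6.93 in narrow and 6.98, 6.88 and 6.99 in wide pools, and its lowest pool was wide 2. In paralog group 4, which patterns the neck vertebrae, the features lay far apart. Hoxa4, at percentile 51.0 of all genes, had 7.97, 8.06 and 8.10 in narrow and 8.05, 8.21 and 8.13 in wide pools (difference -0.09 ± 0.06, 95% interval -0.22 to 0.04). Hoxc4 was the dimmest member, at percentile 9.87, with 5.52, 5.72 and 5.71 in narrow and 5.53, 5.59 and 5.64 in wide pools. Its difference of 0.06 ± 0.06 was the third highest of the 37. Hoxb4 had 6.79, 6.88 and 6.84 in narrow and 6.76, 6.71 and 6.91 in wide pools, and Hoxd4 ranged from 6.50 to 6.72 over all 6.

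Genes of the middle of the clusters, which mark the neck and chest region, gave differences from -0.07 to 0.04. Hoxb5 had 6.75, 7.10 and 6.97 in narrow and 6.91, 6.94 and 7.06 in wide pools. Hoxb6 had the largest standard error of the 37 genes, 0.10, with 6.762, 6.912 and 6.915 in narrow and 6.683, 7.103 and 7.004 in wide pools. Wide 1 was the lowest of its 6 samples and wide 2 the highest. Hoxa7 was even, with 7.39, 7.54 and 7.53 in narrow and 7.38, 7.50 and 7.49 in wide pools, and Hoxb7 had 6.95, 7.12 and 7.31 against 7.09, 7.25 and 7.13. Hoxc8, a gene of lower thoracic vertebrae, had 6.58, 6.84 and 6.68 in narrow and 6.69, 6.87 and 6.76 in wide pools. At a mean of 6.74 it was the last gene above the receptor threshold. The other 5 genes of this stretch, Hoxa5, Hoxa6, Hoxc5, Hoxc6 and Hoxd8, had means from 5.66 to 6.66 and differences from -0.07 to 0.04.

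The lowest differences of all belonged to late paralogs. Hoxb9 had 7.57, 7.67 and 7.84 in narrow and 7.65, 7.84 and 7.92 in wide pools, a difference of -0.11 ± 0.09 (95% interval -0.31 to 0.09). Hoxc9, which sets the thoracic identity of motor neurons, had 6.99, 7.05 and 7.14 against 7.05, 7.26 and 7.20, a difference of -0.11 ± 0.06 (95% interval -0.26 to 0.04). Hoxd12, a limb gene, had 6.44, 6.49 and 6.34 against 6.45, 6.58 and 6.54, a difference of -0.10 ± 0.06 (95% interval -0.22 to 0.03). In each of these 3 genes the narrow pool lay below the wide pool of the same number in 3 of 3 pairs, yet the groups overlapped. Over all members this held for 10 of 37 genes, against 13.9% of all genes, and the reverse for 4 of 37, against 14.8%. Over all genes the pools numbered 1 varied together (correlation of deviations 0.516), while narrow 2 followed wide 3 (0.178) as much as wide 2 (0.176). A limma fit that took the number as a block put 1 Hox gene, Hoxb9, at an unadjusted p under 0.05, where 7.25% of all genes were. The 95% interval of Hoxb9 in that fit, -0.203 to -0.016, left out 0. Its limma adjusted p in that fit was 0.674, the smallest among Hox genes, so 0 passed, as 0% of all genes did.

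The highest differences also came from a late paralog group. Hoxd11 had 7.05, 7.34 and 7.24 in narrow and 7.04, 7.16 and 7.16 in wide pools, a difference of 0.09 ± 0.08 (95% interval -0.09 to 0.26). Hoxa11, which with Hoxd11 is needed for forearm bones and kidney, had 6.52, 6.46 and 6.56 against 6.36, 6.46 and 6.49, a difference of 0.08 ± 0.05 (95% interval -0.04 to 0.20). The third paralog, Hoxc11, had 6.29, 6.47 and 6.11 against 6.33, 6.24 and 6.35 and did not share this sign, at -0.02 ± 0.08. Hoxa10, a gene of lumbar vertebrae and of the uterus, had 7.64, 7.77 and 7.73 against 7.79, 7.83 and 7.73 (difference -0.07 ± 0.05, 95% interval -0.19 to 0.05). Hoxd10 had 6.55, 6.82 and 6.92 against 6.68, 6.91 and 6.83. All 3 measured genes of paralog group 10 had negative differences, from -0.07 to -0.04, each within the spread of its pools.

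Among the remaining late members, Hoxd13, a gene of digit formation, had 7.22, 7.33 and 7.26 in narrow and 7.24, 7.49 and 7.37 in wide pools (difference -0.10 ± 0.07, 95% interval -0.25 to 0.05). Hoxa13 had 7.030, 7.163 and 7.083 against 7.048, 7.201 and 7.003, and Hoxb13 had 6.70, 6.88 and 6.94 against 6.85, 6.93 and 6.94. Hoxc13, known for hair and nails, had means of 7.03 ± 0.04 in narrow and 7.04 ± 0.05 in wide pools (SD, n = 3 each). Hoxd9 had 6.98, 7.09 and 7.20 in narrow and 7.10, 7.14 and 7.20 in wide pools, and Hoxc12 had 6.67, 6.83 and 6.84 against 6.62, 6.89 and 6.73. None of these genes separated the cavities. Hoxa9 and Hoxc10 stood at percentiles 24.0 and 26.6 with differences of 0.01 ± 0.06 and -0.06 ± 0.07.

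The signs of the differences by cluster depended on single pools. In Hoxb 8 of 9 genes had a negative difference, Hoxb4 being the exception, in Hoxc and Hoxd 6 of 9 each, and in Hoxa 2 of 10, namely Hoxa4 and Hoxa10. Without narrow 1 only 3 of 9 Hoxb genes (Hoxb1, Hoxb6 and Hoxb9) kept a negative difference, and the Hoxb median went from -0.052 to 0.009. Without wide 1 the Hoxa count went from 2 to 5 of 10, without wide 3 to 4 of 10, and without wide 2 the Hoxd count went from 6 to 3 of 9. With all pools the cluster medians were -0.052 for Hoxb, -0.040 for Hoxd, -0.019 for Hoxc and 0.021 for Hoxa. The mean signal of the Hoxb genes was 7.12, 7.29 and 7.31 in narrow and 7.18, 7.32 and 7.36 in wide pools. That of the Hoxa genes was 6.72, 6.81 and 6.82 against 6.73, 6.80 and 6.78. Both clusters' groups overlapped, and the difference between clusters was not tested. Genes of 1 cluster were measured in the same 6 pools and are not replicates of each other.

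The Hox genes varied together with the replicate number. In 26 of 37 Hox genes (70.3%) the number 1 pool was the lowest of both its groups, while 27.5% of all genes and 32.0% of receptor genes had this pattern. Among other lists it held for 5 of 8 genes related to the Hox clusters (62.5%). It held for 5 of 11 Trithorax and demethylase genes (45.5%), 6 of 15 gastrulation genes (40%) and 5 of 16 retinoic acid genes (31.2%). The pattern was rarer in Hox cofactors and in noncoding genes within the clusters, 2 of 8 each (25%). For Polycomb genes it was 3 of 17 (17.6%). Taken singly, narrow 1 was the lowest narrow pool in 30 and wide 1 the lowest wide pool in 30 of the 37, against 48.7% and 40.6% of all genes. The mean over the 37 genes was 6.75 in narrow 1 and 6.78 in wide 1, and between 6.87 and 6.90 in the other 4 pools. The number 1 pool thus lay 0.12 below the mean of its group's other pools in narrow and 0.11 below in wide cavities. For receptor genes the gap was 0.078 and 0.037, and for all genes 0.031 and 0.012. By cluster the pattern held for 8 of 9 Hoxb, 7 of 9 Hoxc, 7 of 9 Hoxd and 4 of 10 Hoxa genes. The count was 24 after quantile normalization and 19 after centring each sample on its receptor genes, where the shares of all genes were 23.0% and 10.6%. The gap between pools was larger than the mean difference between cavities, -0.020 over the 37 genes, and no test was made because the number 1 pools were singled out from the data.

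**Figure D4:**
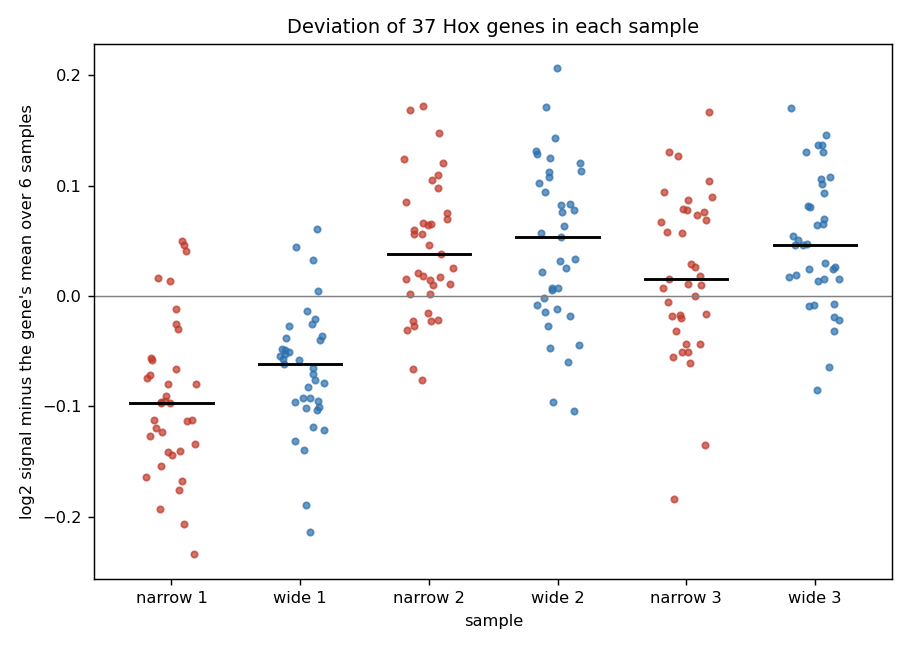
Each point is 1 Hox gene's log2 signal in 1 sample minus its mean over the 6 samples, with narrow pools in red, wide pools in blue and black bars at the median of the 37 genes. The medians are -0.10 in narrow 1 and -0.06 in wide 1 and lie between 0.02 and 0.05 in the other 4 samples.

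Most noncoding genes that lie within the Hox clusters were dim as well. Of 15 listed, 8 were measured, with a median percentile of 16.9 among all genes, and 0 of the 8 had an unadjusted p under 0.05. MicroRNAs of the miR-10 and miR-196 families lie next to Hox genes and repress Hox transcripts, and the members of each family share a seed, bases 2 to 8, shown in capitals as RefSeq gives them.
miR-10a-5p (Mir10a, Hoxb cluster, chr11:96317186-96317208): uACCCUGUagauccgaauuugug
miR-10b-5p (Mir10b, Hoxd cluster, chr2:74726074-74726096): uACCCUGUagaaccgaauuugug
miR-196a-5p (Mir196a-1, Hoxb cluster, chr11:96265187-96265208): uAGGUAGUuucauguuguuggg
miR-196b-5p (Mir196b, Hoxa cluster, chr6:52230129-52230150): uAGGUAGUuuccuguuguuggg
The array features are assigned to the microRNA genes and not to the mature forms shown. Mir10a had signals of 4.58, 4.54 and 4.61 in narrow and 4.56, 4.64 and 4.70 in wide pools, at percentile 0.597 of all genes. Mir10b stood at percentile 0.492, between 4.53 and 4.68 over the 6 pools, and they lay above 5.36% and 4.52% of the receptor genes. Mir196a-1 was at percentile 8.08 and Mir196b at 24.8. Mir615, in the Hoxc cluster, was the brightest of the 8 with 8.41, 8.62 and 8.38 against 8.58, 8.48 and 8.60 (difference -0.08 ± 0.07). It was not dim, at percentile 55.7 of all genes, above each of the 37 Hox genes. Hottip, a long noncoding RNA of the 5′ end of Hoxa, had a difference of -0.01 ± 0.09.

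The following lists hold genes that act on or with Hox genes, again with levels as rough ranks. The 17 measured Polycomb genes had a median percentile of 83.2 among all genes, with Ezh2, which methylates histone H3 on lysine 27, at 98.1, and its partner Suz12 at 97.7. Polycomb genes barely varied between cavities, with a median difference of 0.004 and 0 of 17 at an unadjusted p under 0.05, the smallest p being that of Bmi1 (0.06 ± 0.06), then of Pcgf2 (0.04 ± 0.04). The 11 measured Trithorax and demethylase genes, which oppose Polycomb, stood at a median percentile of 85.1, with 0 at such a p and a median difference of -0.013. Dpy30 had 0.06 ± 0.04 and Kdm6a -0.06 ± 0.06.

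The 8 measured cofactors of the Pbx, Meis and Pknox families had a median percentile of 55.9. Pknox1 was the 1 of the 8 at an unadjusted p under 0.05, with 9.20, 9.24 and 9.25 in narrow and 9.14, 9.03 and 9.18 in wide pools (0.11 ± 0.05, limma adjusted p = 1.00). All 3 narrow samples lay above all 3 wide ones, a separation in either direction that 7.70% of all genes showed. With the replicate number as a block Meis2 (0.14 ± 0.07 without the block, higher in narrow in 3 of 3 pairs) was also at such a p, and the count was 2 of 8. Of the 8 genes related to the Hox clusters, such as the Cdx genes that activate Hox genes, 0 were at such a p, and 2 were with the replicate number as a block, Cdx2 and the pancreas gene Pdx1 (-0.12 ± 0.08 without the block), both lower in narrow in 3 of 3 pairs. Cdx2, a trophoblast gene at this stage, stood at percentile 81.6 (-0.10 ± 0.06), and Cdx4, which starts at gastrulation, at 10.1 (0.09 ± 0.05).

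Retinoic acid switches on early Hox genes. Among 16 measured genes of its pathway 1 was at an unadjusted p under 0.05 and higher in narrow cavities, the receptor gene Rarb, with 7.004, 6.947 and 7.140 against 6.888, 6.740 and 6.910 (0.18 ± 0.07, limma adjusted p = 1.00). Rarb stood at percentile 32.35 of all genes, within the range of the Hox genes. Cyp26a1, the enzyme that degrades retinoic acid, stood at percentile 90.6 with 0.06 ± 0.04. Of 15 measured signals and transcription factors of gastrulation, 1 was higher and 1 lower at such a p and 0 passed the adjusted threshold. Lhx1 had a difference of 0.15 ± 0.05 and Mixl1 of -0.14 ± 0.04, and the block added Msgn1 (-0.11 ± 0.05) to those lower. In the retinoic acid and gastrulation lists, narrow and wide pools did not overlap for Rarb, Aldh1a3, Lhx1, Mixl1 and Tbx6. The same held for 7.70% of all genes. Neither Hoxb1 nor the other early Hox genes separated the cavities beside them. In each list 0 genes passed over all genes, with or without the block. The shares of all genes at an unadjusted p were 1.68% higher and 1.72% lower in narrow, and 7.25% in either direction with the block.

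**Figure D5:**
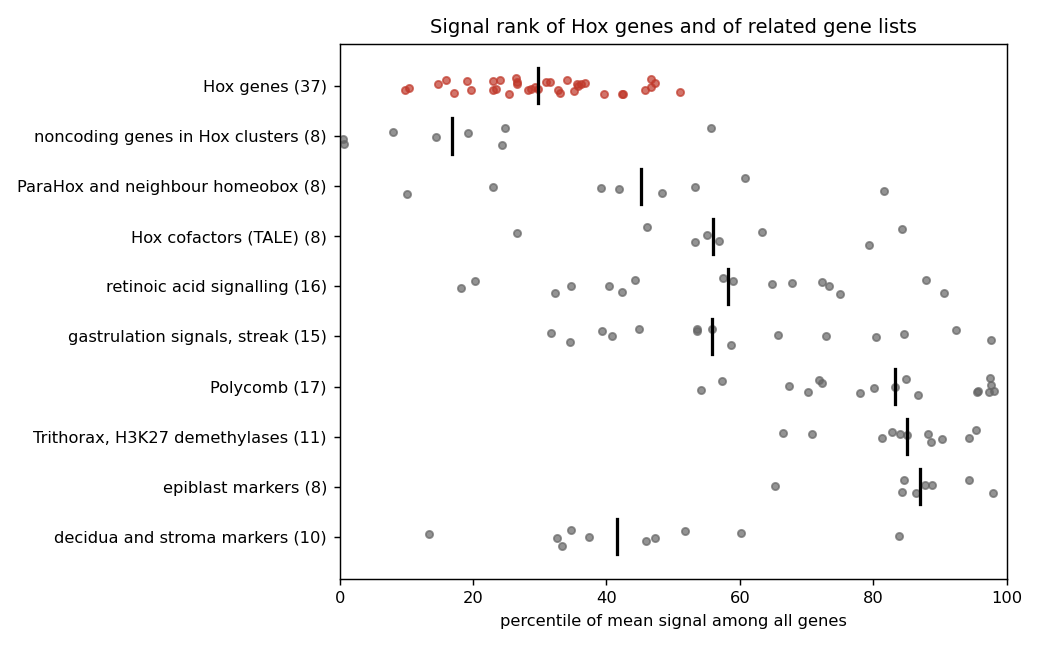
Each point is 1 gene's percentile of mean signal among all 19938 genes, in rows for the Hox genes (red) and related lists (grey), with the number of measured genes in brackets and black bars at the medians. Hox genes (median 29.8) lie to the left of Polycomb (83.2), Trithorax (85.1) and epiblast marker genes (87.0).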

How the data were processed

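Per the labels' protocols, total RNA of pooled embryos was labelled with biotin and hybridized to Affymetrix Mouse Gene 1.0 ST arrays. The authors deposited 1 log2 signal per feature and sample; the log2 scale was read from the range, 4.33 to 14.31. Their background correction, summarization, scaling, software and genome build were not given in the sources used here. Of 28853 features, 21789 named 1 gene in the platform annotation, 1621 several and 5443 none. For each of the 19938 genes the feature with the highest mean was kept, with no filter. Narrow and wide pools were compared with limma 3.58.1 (lmFit, eBayes, two-sided, no covariate) in R 4.3.3, with Benjamini-Hochberg adjustment over all genes and a threshold of 0.05. How often this fit would find differences as small as those of the Hox genes was not tested. The limma p-value sets each difference against the spread between pools, which eBayes draws toward a value shared by all genes. There were 3 pools per group, a number that limits the precision.

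Members and lists were chosen with earlier results of these data known. Levels of each member were described beside 1194 receptor genes. Genes named from the lists were those with the smallest p, up to 2 per list, and others were chosen after their values were seen. The fit above took no pairing. Only the block fit and the counts of pairs took the replicate numbers to pair the samples. The median standard error of the Hox genes was 0.064 without and 0.044 with the block. Deviations from the group mean correlated over genes at 0.516, 0.176 and 0.272 between the pools numbered 1, 2 and 3. The labels do not state a pairing, and narrow 2 with wide 3 reached 0.178. Sequences were read and searched with Python 3.11.15.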

Additional observations from a re-analysis of the deposited data

How the results depend on the processing

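The fits on the samples numbered 2 and 3 were planned because the number 1 pools were known to stand apart; the centring on receptor genes, the alternatives for the number 1 pattern, the counts by cluster and the block on related lists were chosen after seeing the data. Under 14 alternatives 0 genes passed the adjusted threshold in limma or with unequal variances. The 0 Hox genes at an unadjusted p under 0.05 became 1 with the replicate number as a block (Hoxb9), 2 with the samples numbered 2 and 3 only (Hoxb6 and Hoxd11), and 0 to 3 when each sample was left out, namely 3 without narrow 1 (Hoxa2, Hoxc4 and Hoxd11, higher in narrow) and 3 without wide 1 (Hoxb6, Hoxc9 and Hoxd13, lower in narrow). Among the lists of related genes the block raised such counts from 1 to 2 of 8 cofactors, 0 to 2 of 8 cluster relatives and 2 to 3 of 15 gastrulation genes. It changed no call at the adjusted threshold. The median Hox difference of -0.029 ranged from -0.066 without wide 1 to 0.024 without narrow 1, was -0.020 in the samples numbered 2 and 3, -0.010 after quantile normalization, and was -0.035 after centring on receptor genes. Above the 50th percentile of signal only Hoxa4 was tested. Against receptor genes, 22 Hox genes above the 95th percentile became 7 at the 99th, 30 at the 90th and 35 with vomeronasal receptor genes only, and 21 to 22 when each sample was left out. Of 482 differences of single Hox genes, 439 kept their sign and 43, none called, changed it, in 19 genes. The block, an intensity trend, unequal variances and other choices of feature left each Hox difference unchanged by construction. Those fits count among the 439, which therefore overstates how stable the signs were. Each of the 37 moved by more than 1.5 times in some fit without 1 sample, and adjusted p ran from 0.674 to 1. Depth does not apply to arrays; signal over background was not measured.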
